A study of Mus musculus with 10 samples.

Results

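Replication-dependent histone genes were represented by every probe that is not a control and whose gene name in the scanner files starts with Hist1h, Hist2h, Hist3h or Hist4h. This gave 52 probes of 45 genes, among 55681 probes of 60 bases and 34650 gene names on a mouse Agilent array. By class they comprised 6 probes for linker histone H1, 13 for H2A, 11 for H2B, 8 for H3 and 14 for H4, and by cluster 39 probes for Hist1, 10 for Hist2, 2 for Hist3 and 1 for Hist4. In mimic samples, the mouse myoblast line C2C12, whose cells can fuse into myotubes, was transfected with a miR-142-3p mimic at 150 nM. In scramble samples the same line received a scrambled sequence at the same dose. All samples got the cationic lipid reagent and growth medium with fetal bovine serum, about 60% of cells were estimated to be transfected, and RNA was taken after 72 hours. The labels list 6 mimic and 4 scramble samples from repeated transfections. Only the scramble titles bear the remark re-analysis, for which the sources used here give no meaning.

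The file headers place these samples on 5 positions of 1 slide, each scanned on 2 days, 3 positions for mimic and 2 for scramble. Scans of one position were averaged, so n is 3 mimic and 2 scramble arrays, and p-values cover only the spread among these 5 arrays, part of which may be technical. Per scan, the share of the 59305 non-control spots well above background ran from 25.4% to 34.6%, and at most 1 was saturated. Values are log2 processed signal relative to the 75th percentile of the scan, so a probe at 0 lies at that percentile and a difference of 1 is 2-fold. The cells were checked against marker lists, at the adjusted p of 0.05 (limma) used below. Over all kept probes, 5.11% were called higher in mimic samples and 4.02% lower. Of 20 myotube genes 18 were kept, and 15 of them fell in mimic samples and none rose, with a median difference of −4.20, the log2 of their summed signal being 6.00 to 6.23 on the mimic arrays and 9.46 to 9.58 on the scramble arrays. Of 13 myoblast genes 10 were kept, 1 rose and 7 fell, with log2 summed signals of 7.64 to 7.71 on mimic and 8.45 to 8.60 on scramble arrays, while no scan had Pax3 or Pax7 well above background. Of 11 leukocyte genes 5 were kept and 2 rose, with log2 summed signals of 5.47 to 5.56 on mimic and 4.02 to 4.05 on scramble arrays, while no scan had Ptprc, Lyz2 or Tyrobp well above background. Of 9 fibroblast or adipocyte genes 4 were kept and 2 rose, with log2 summed signals of 7.24 to 7.35 on mimic and 6.09 to 6.76 on scramble arrays, while no scan had Adipoq, Fabp4 or Plin1 so. In bulk RNA, fewer cells of a type and less RNA per cell cannot be told apart, and the part of these shifts in the histone values was not tested.

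Core histones H2A, H2B, H3 and H4 form the octamer around which DNA is wound, and H1 binds the linker DNA between octamers. Their replication-dependent genes lie in clusters of near-identical copies, have no introns, and are transcribed mainly during S phase, so that histone supply keeps pace with new DNA. Their messages end in a conserved stem loop bound by SLBP instead of a poly(A) tail. When cells leave the cycle to differentiate, as myoblasts do, these messages are usually lost, although some of the genes also give polyadenylated transcripts. The labelling kit primes on poly(A) with an oligo-dT primer, so a signal here need not follow the amount of the tail-less message.

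The transfected mimic carries the sequence of a microRNA best known from blood cells. It is shown because its seed (bases 2 to 8, in capitals) is the stretch by which such a molecule pairs with messages. The RefSeq sequence on chr11:87756903-87756925, plus strand of GRCm38.p6, is the following.
mmu-miR-142a-3p: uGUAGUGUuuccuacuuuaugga

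How far a probe can tell one histone gene from another is seen in 4 H2A probes that cover the same last codons of the reading frame. Capitals mark the 10 positions at which they are not all alike, and any pair differs at 5 to 8 of 60 bases. In mm9, the build of the files, they lie at chr13:23626113-23626172 (plus), chr13:21845304-21845363 (minus), chr13:21902669-21902728 (plus) and chr3:96043781-96043840 (minus).
Hist1h2af: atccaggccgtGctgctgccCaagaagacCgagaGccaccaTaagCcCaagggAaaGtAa
Hist1h2ak: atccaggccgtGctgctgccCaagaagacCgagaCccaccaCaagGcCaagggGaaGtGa
Hist1h2an: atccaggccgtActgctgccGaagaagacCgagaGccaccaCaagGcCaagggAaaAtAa
Hist2h2aa2: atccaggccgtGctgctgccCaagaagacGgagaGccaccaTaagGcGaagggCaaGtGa

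A further 2 probes show the same within the H4 reading frame, where 8 of 60 bases differ (capitals). They lie on the minus strand at chr13:23790223-23790282 and chr13:21842279-21842338 of mm9.
Hist1h4c: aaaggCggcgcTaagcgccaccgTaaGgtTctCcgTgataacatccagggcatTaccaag
Hist1h4k: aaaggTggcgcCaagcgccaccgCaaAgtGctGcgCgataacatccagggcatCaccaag

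The scanner files list several RefSeq genes for 16 of the 52 probes, 1 for 28 and none for 8. A run of 20 bases was shared with the probe of another histone gene by 18 probes, with up to 7 such partners, and with a probe outside the set by 10, among them the H2A variant gene H2afj. A value given under one gene name below is therefore the signal of a probe that can collect its paralogs. The 15 kept probes listed for several genes had a median difference of 0.32 and the 22 others 0.38. Split by shared runs of 20 bases, the order was the reverse. The 16 kept probes that share a run with another histone gene had 0.43 and the 21 others 0.31. The shift described below was thus seen in both kinds of either split, but counts of positive probes are not counts of independent genes.

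A stem loop that ends tail-less histone messages was found in 5 probes, of which 3 (Hist2h2bb, Hist1h3a and Hist1h3i) hold the consensus histone stem loop on the probe strand (4 of all 55681 probes, 0.00718%). All 5 hold it when some stem and loop bases may vary (7 of all probes), a form searched after the sequences were seen. Their stretches, with the stem loop in capitals, lie in mm9 at chr3:96074087-96074115 (plus), chr13:23853756-23853781 (minus), chr13:23627751-23627778 (plus), chr13:21874784-21874811 (minus) and chr13:21903991-21904019 (plus).
Hist2h2bb: cccaaaaGGCTCTTTTCAGAGCCacttta
Hist1h3a: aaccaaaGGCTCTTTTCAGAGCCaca
Hist1h3g: ctttaaaGGCTCTTCTTAGAGCCaccca
Hist1h3i: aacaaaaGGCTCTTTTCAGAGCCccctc
Hist1h4m: aactaaaGGCCCTTTTCAGGGCCatccaa

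Of these 5, the Hist2h2bb probe was well above background on all 10 scans. The Hist1h3g probe was so on 5 of 6 mimic and 2 of 4 scramble scans, the Hist1h4m probe on 5 of 6 and 1 of 4, and the Hist1h3a probe on 1 of 6 and none of 4. For the Hist1h3i probe no scan reached that mark. A poly(A) hexamer (AATAAA or ATTAAA, probe strand) was in 4 of the 52 probes, against 13.7% of all probes.

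A probe entered the comparison when at least 4 of the 10 scans had it well above background. This held for 37 of the 52 histone probes, which stand for 31 genes: 3 for H1, 11 for H2A, 5 for H2B, 6 for H3 and 12 for H4. Of the 37, 31 were well above background on all 10 scans. Of the 15 not kept, 10 did not reach that mark on a single scan, and 14 genes had no kept probe. The germ-cell histone genes differed among themselves: no scan had the probes of Hist1h1t and Hist1h2aa well above background, whereas all 10 had that of Hist1h2ba, known as a testis H2B gene.

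No histone probe passed the test between mimic and scramble samples. At an adjusted p of 0.05 (limma, Benjamini-Hochberg over 17455 kept probes) 0 of 37 were called, where 9.13% of all kept probes were, 5.11% as higher and 4.02% as lower. The lowest adjusted p of a histone probe was 0.058. At an unadjusted p of 0.05, 9 of 37 passed, 8 of them with a positive difference, against 25.3% of all kept probes, 14.4% with a positive difference. The share of histone probes past that mark was thus near the background. The count of 0 rested on the scramble arrays: without scramble array 1, 9 histone probes were called higher and none lower, where 16.2% of all probes were called higher and 9.67% lower. Without scramble array 2, 1 was called higher and 1 lower, where 3.60% and 3.07% of all probes were.

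Most histone probes nevertheless lay a little above the scramble level in mimic samples. Their median difference was 0.32, a fold of 1.25, against 0.06 over all kept probes, and 31 of 37 differences were positive, against 55.6% of all kept probes. Every mimic array lay above both scramble arrays for 19 of the 37 (24.0% of all kept probes), every mimic array lay below both for 2 (18.6% of all kept probes), and for 16 the groups overlapped. The histone median stood 0.26 above that of all kept probes, and between 0.23 and 0.44 above it under 21 alternative settings. No test was made of this shift. Within slide row 1, which held mimic arrays 1 and 3 and scramble array 1, the histone median was 0.29, and within row 2, which held mimic array 2 and scramble array 2, it was 0.48. Over all kept probes these within-row medians were −0.01 and 0.15. In the scans of the first day the histone median was 0.36, and in those of the second 0.31. Over the 31 probes well above background on every scan, it was 0.32 with 27 positive, and over all 52 without a filter it was 0.31 with 38 positive, against −0.12 over all probes without a filter.

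**Figure D1:**
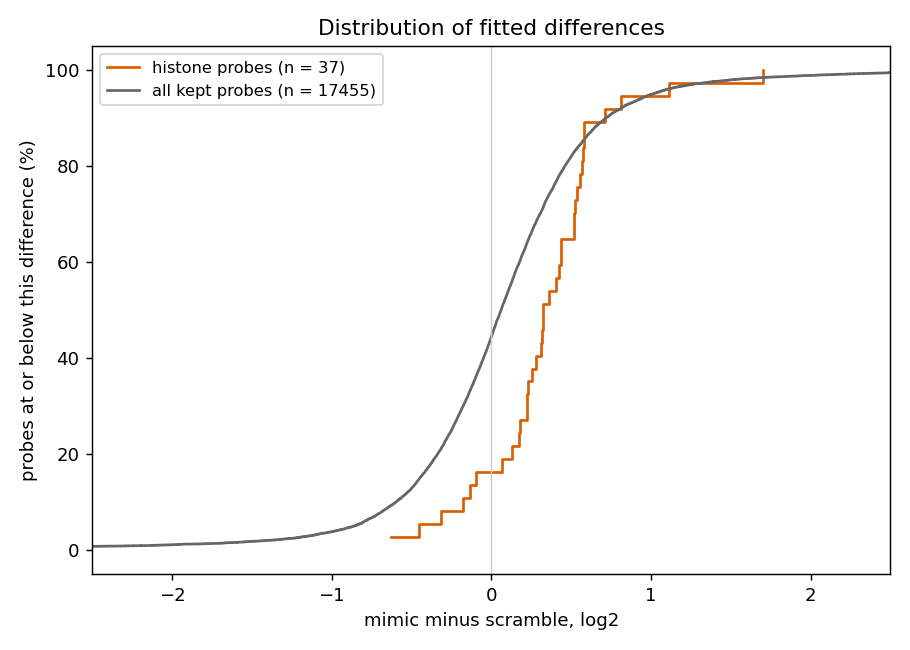
The fitted mimic minus scramble difference (x axis, log2) against the percentage of probes at or below it (y axis), for the 37 kept histone probes and for all 17455 kept probes. The histone curve lies to the right over most of its course, with a median of 0.32 against 0.06, and meets the other among the largest positive differences.

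The intervals limit how large a change could have gone unseen. The 95% interval of the difference excluded a 2-fold rise for 23 of the 37 probes, and a 2-fold change either way for 20. Both counts include a Hist2h2bb probe that no scramble scan had well above background, for which the interval sets no such limit. The half-width of the interval was 0.43 to 1.09, with a median of 0.50. The interval lay above 0 for 8 probes and below 0 for 1, before any adjustment.

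**Figure D2:**
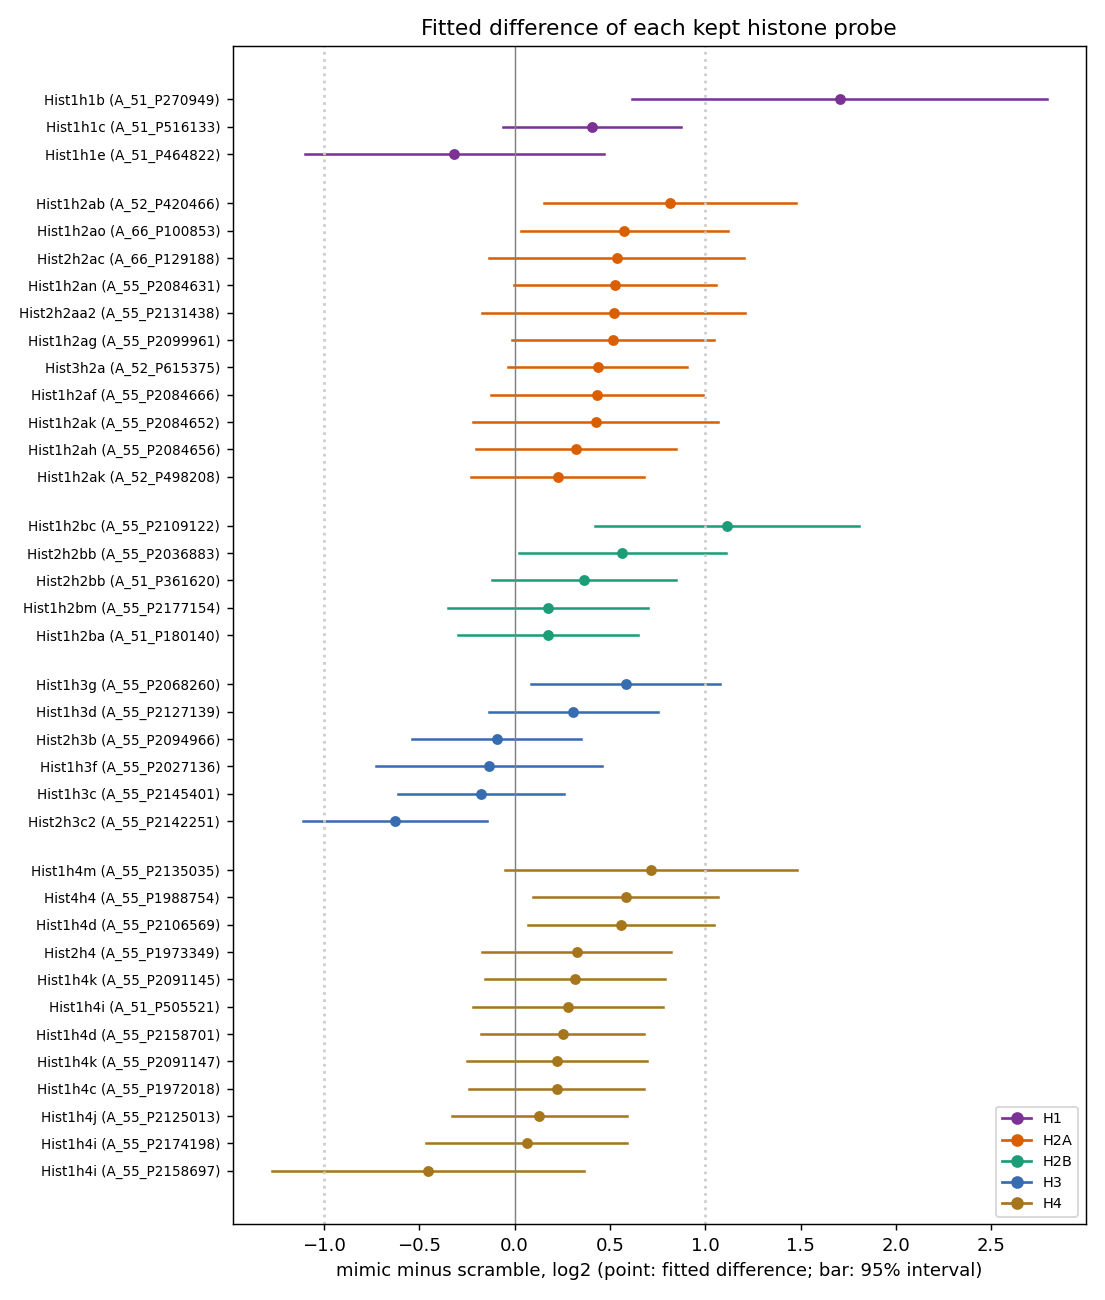
Fitted mimic minus scramble difference (x axis, log2) of each of the 37 kept histone probes, with its 95% interval, grouped by class. Dotted lines mark a 2-fold change. All H2A and H2B points lie right of 0, and 4 of the 6 H3 points lie left of it.

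The linker histone H1 was measured by single probes of Hist1h1b, Hist1h1c and Hist1h1e, and these differed in sign and size. Hist1h1b (H1f5, chr13:21871923-21871982, minus), which encodes a somatic H1 typical of dividing cells, had 0.35, −0.26 and 0.64 on the mimic arrays, against −0.64 and −2.28 on the scramble arrays. The mimic arrays lay above both scramble arrays, which were themselves 1.64 apart on the log2 scale. The difference was 1.70 ± 0.47 (SE), a fold of 3.26, with an adjusted p of 0.063 (limma). The probe was well above background on all 6 mimic scans but on only 2 of 4 scramble scans. It was called in 6 of 19 alternative settings, with adjusted p between 0.00084 and 0.22, and its difference was 0.84 after normexp background correction. The 0.00084 came from scaling to the median. Calls with the 10 labelled samples as separate or with a replicate block came from fits that count both scans of an array as separate samples. Without scramble array 1 the difference was 2.53, and without scramble array 2 it was 0.88, so its size rested on which scramble array was used.

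Hist1h1c (H1f2, chr13:23832018-23832077, plus), a linker histone gene that is also expressed outside S phase, had 3.78, 4.10 and 3.86 on the mimic arrays, against 3.58 and 3.44 on the scramble arrays. The groups did not overlap, but the difference of 0.40 ± 0.20 did not pass (adjusted p = 0.256, limma). Hist1h1e (H1f4, chr13:23713707-23713766, minus), another somatic linker gene, had 3.60, 3.81 and 3.79 on the mimic arrays, against 4.66 and 3.44 on the scramble arrays. Here the mimic arrays lay close together, between scramble arrays that differed by 1.22, and the difference was −0.32 ± 0.34. Without scramble array 2 it was −0.93 with an adjusted p of 0.049 (limma), the only one of 20 alternatives in which it was called. Over these alternatives the difference ran from −0.93 to 0.29, so its direction was not settled. The probes of Hist1h1a, Hist1h1d and Hist1h1t were not kept.

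In the H2A class all 11 kept probes had a positive difference, here and in each of the alternative settings, from 0.23 to 0.81 with a median of 0.52 (a fold of 1.43). For 7 of them every mimic array lay above both scramble arrays, against 24.0% of all kept probes. With all 5 arrays no H2A probe was called, where 9.13% of all kept probes were. The size of the class median rested on the scramble arrays, as given below. The 4 with the highest mean signal were those named Hist1h2ah, Hist1h2af, Hist1h2ag and Hist1h2ak, genes for the main H2A protein of the nucleosome.

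Hist1h2ah (H2ac12, chr13:22127035-22127094, minus) had 6.23, 6.55 and 6.56 on the mimic arrays, against 6.34 and 5.90 on the scramble arrays. Hist1h2af had 6.00, 6.16 and 6.27 on the mimic arrays, against 6.02 and 5.40 on the scramble arrays. For both the first mimic array lay just below the first scramble array, and the differences were 0.32 ± 0.23 and 0.43 ± 0.24. Hist1h2ag had 5.97, 6.05 and 6.29 on the mimic arrays, against 5.84 and 5.33 on the scramble arrays. Its groups did not overlap (difference 0.52 ± 0.23, adjusted p = 0.208, limma), and the coordinates in the files for this probe join separate loci of chromosome 13, so no single position is given.

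Hist1h2ak was measured by 2 probes 333 bases apart. The downstream one, whose sequence is given above and which is listed for 4 genes, had 5.70, 5.71 and 6.15 on the mimic arrays, against 5.80 and 5.05 on the scramble arrays. The upstream one (chr13:21845637-21845696, minus), listed for H2ac15 alone, had 2.53, 2.78 and 2.81 on the mimic arrays, against 2.46 and 2.50 on the scramble arrays. Their differences were 0.42 ± 0.28 and 0.23 ± 0.20. The one listed for a single gene thus differed less, within the error of both.

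Among the others, chosen for mention after their values were seen, Hist1h2ab (H2ac4, chr13:23843392-23843451, plus) had the highest difference of its class. It had 4.05, 4.63 and 4.34 on the mimic arrays, against 3.90 and 3.14 on the scramble arrays. The groups did not overlap, and the difference was 0.81 ± 0.29 (adjusted p = 0.125, limma). Hist1h2an and Hist1h2ao, whose probes overlap in position, had differences of 0.53 ± 0.23 and 0.58 ± 0.23.

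For H2A the scramble arrays disagreed in a regular way. Scramble array 2 was below scramble array 1 for 10 of the 11 kept probes, by a median of 0.50, which is close to the size of the difference between the groups. Without scramble array 2 the class median was 0.25, and without scramble array 1 it was 0.75. Within slide row 1 the H2A median was 0.24, and within row 2 it was 0.69. By scan day the H2A median was 0.53 on the first and 0.41 on the second.

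**Figure D3:**
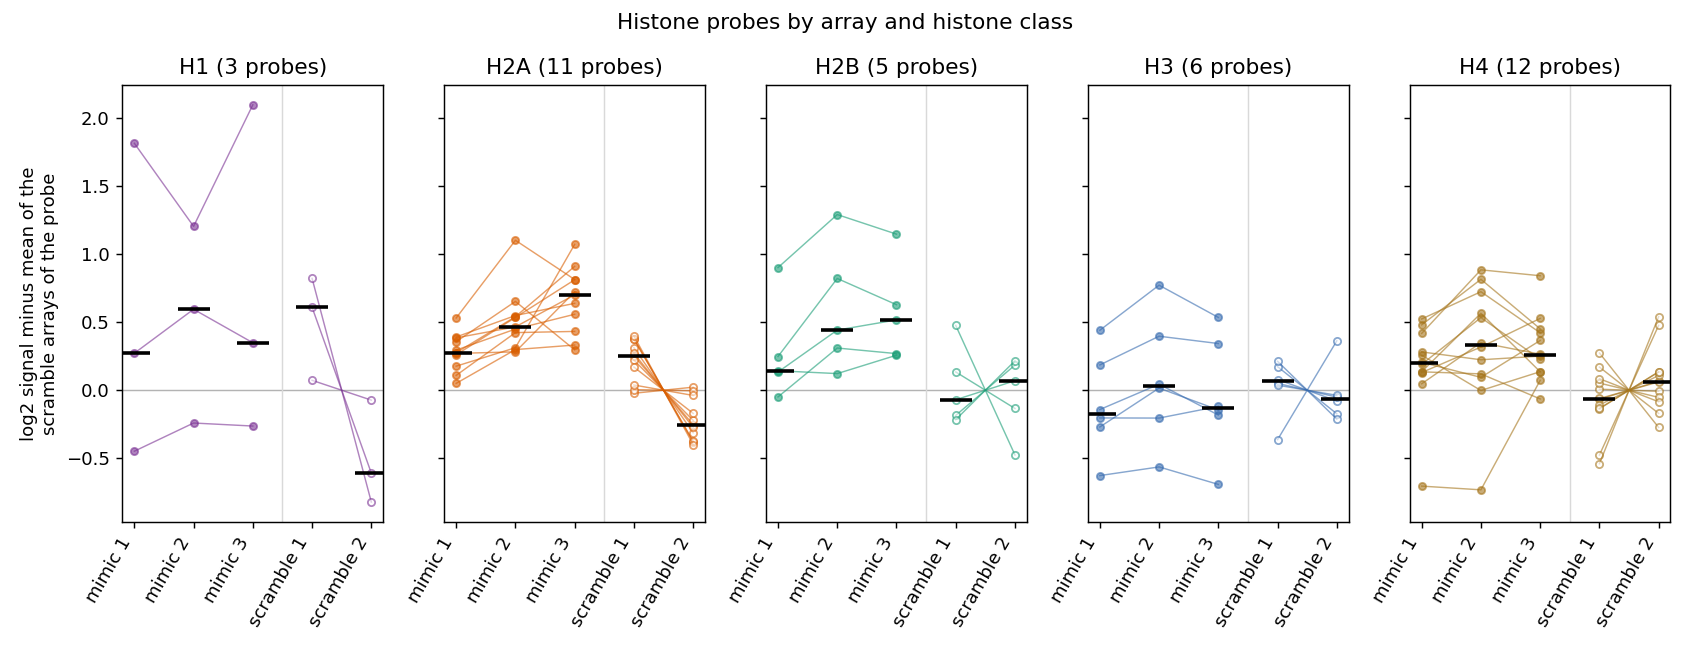
Log2 signal of each kept probe on each array minus its mean over the scramble arrays (y axis), by histone class. Filled points are mimic arrays, open points scramble arrays, lines join arrays of a group for 1 probe, and black bars are medians. H2A points of mimic arrays lie mostly above 0, scramble array 2 lies below scramble array 1 for 10 of 11 H2A probes, and H3 medians stay near 0.

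The H2B class had 5 kept probes, all with a positive difference, and a median of 0.36 (0.38 within slide row 1 and 0.37 within row 2). Of the 5, 1 was kept through its mimic scans alone (the downstream Hist2h2bb probe below). Hist1h2bc (H2bc4, chr13:23784254-23784313, plus), which encodes a core H2B and is known to give a polyadenylated transcript as well, had 3.46, 3.85 and 3.70 on the mimic arrays, against 3.03 and 2.08 on the scramble arrays. Every mimic array lay above both scramble arrays. The difference of 1.11 ± 0.30, a fold of 2.16, had the lowest adjusted p of all histone probes, 0.058 (limma), and was called in 5 of 20 alternative settings with adjusted p between 0.0028 and 0.38. The 0.0028, and a call with a replicate block, came from fits that count both scans of an array as separate samples. Without scramble array 1 the difference was 1.59, and without scramble array 2 it was 0.64.

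Hist1h2bm (H2bc14, chr13:21814057-21814116, plus), listed for 4 H2B genes, had 2.53, 2.89 and 2.85 on the mimic arrays, against 2.36 and 2.79 on the scramble arrays. Hist1h2ba (H2bc1, chr13:24025811-24025870, minus) had 1.92, 1.90 and 2.03 on the mimic arrays, against 1.59 and 1.96 on the scramble arrays. For both the groups overlapped, with differences of 0.18 ± 0.23 and 0.17 ± 0.20 that dropped to −0.04 and −0.01 in the lowest of the alternative settings.

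Hist2h2bb (H2bc18) was measured by 2 probes on chromosome 3 that lie 8698 bases apart. The upstream one (chr3:96074056-96074115, plus), with the stem loop given above, had 1.36, 1.93 and 1.74 on the mimic arrays, against 1.24 and 0.97 on the scramble arrays (difference 0.57 ± 0.24, adjusted p = 0.184, limma). The downstream one (chr3:96082754-96082813, plus), which lies well beyond the stem loop and holds a poly(A) hexamer, stood well above background on 4 of the 6 mimic and 0 of the 4 scramble scans. Its mimic mean of −0.82 stood 1.23-fold above a scramble reference, which gives a bound. On each scramble scan this reference was the probe's own signal or, if higher, the lowest signal that counted as well above background. The scramble mean of the probe itself was −1.18. This bound leaves out the error of the arrays. The fitted difference was 0.36 ± 0.21 (adjusted p = 0.316, limma). Its 95% interval, −0.12 to 0.84, included 0, so no rise was established. The downstream probe was kept through its mimic scans alone, so its direction adds nothing to that of the upstream probe. The probes of Hist1h2bb, Hist1h2be, Hist1h2bp, Hist1h2bq, Hist2h2be and Hist3h2bb-ps were not kept.

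In the H3 class 4 of 6 kept probes had a negative difference, and the median was −0.11. Its median was −0.02 within either slide row, and it was positive in the scans of the first day (0.07), without scramble array 2 (0.05) and without a filter on dim probes (0.01), so no direction is given for the class.

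Hist1h3d (H3c4, chr13:23667979-23668038, plus), listed for 4 H3 genes, had 5.61, 5.82 and 5.76 on the mimic arrays, against 5.47 and 5.37 on the scramble arrays. Its groups did not overlap, though only by a small margin, with a difference of 0.31 ± 0.19. Hist1h3c (H3c3, chr13:23837328-23837387, minus) had 1.07, 1.07 and 1.16 on the mimic arrays, against 1.35 and 1.20 on the scramble arrays. Every mimic array lay below both scramble arrays by a small margin, with a difference of −0.18 ± 0.19.

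Hist1h3f (H3c7, chr13:23636330-23636389, plus) had −0.40, −0.12 and −0.28 on the mimic arrays, against −0.50 and 0.23 on the scramble arrays, so its groups overlapped. Hist2h3b (H3c13, chr3:96072881-96072940, plus), listed for 3 genes of the Hist2 cluster that encode the H3.2 form, had 2.92, 3.10 and 2.88 on the mimic arrays, against 3.09 and 3.02 on the scramble arrays. The groups overlapped here too, with a difference of −0.09 ± 0.19 whose 95% interval ran from −0.54 to 0.35.

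Hist2h3c2 (H3c15, chr3:96042034-96042093, minus), of the same cluster, had −1.27, −1.20 and −1.33 on the mimic arrays, against −0.43 and −0.85 on the scramble arrays. It was 1 of the 2 histone probes with every mimic array below both scramble arrays, and the only one whose 95% interval lay below 0. The difference was −0.63 ± 0.21, a fold of 1.54 lower in mimic samples, with an adjusted p of 0.111 (limma). It was called in 3 of 19 alternative settings with adjusted p between 0.011 and 0.84 (a difference of −0.41 without scramble array 1 and of −0.84 without scramble array 2, neither called), and the probe is dim, being well above background on 2 of 6 mimic and 3 of 4 scramble scans. The 0.011, and a call with a replicate block, came from fits that count both scans of an array as separate samples. Hist1h3g, outside the rule for named genes and with the stem loop shown above, had −0.83, −0.50 and −0.73 on the mimic arrays, against −1.10 and −1.44 on the scramble arrays. Its difference was 0.58 ± 0.21 (adjusted p = 0.142, limma). This probe passed the filter through its mimic scans (5 of 6, against 2 of 4 scramble scans), so its direction adds nothing.

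The H4 class, whose genes encode one and the same protein, had 12 kept probes, 11 with a positive difference, and a median of 0.27 (a fold of 1.20). Of the 11, 1 passed the filter through its mimic scans (Hist1h4m below). Every mimic array lay above both scramble arrays for 5 of them, against 24.0% of all kept probes. The H4 median was 0.30 within slide row 1 and 0.31 within row 2, and 0.28 on each scan day.

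Hist1h4d (H4c4) was measured by 2 probes 234 bases apart. The downstream one (chr13:23673749-23673808, plus), listed for H4c4 alone, had 6.89, 7.09 and 6.79 on the mimic arrays, against 6.54 and 6.20 on the scramble arrays (difference 0.56 ± 0.21, adjusted p = 0.151, limma). The upstream one (chr13:23673515-23673574, plus), listed for 3 genes, had 3.86, 3.80 and 3.83 on the mimic arrays, against 3.52 and 3.64 on the scramble arrays (difference 0.25 ± 0.19). Neither pair of groups overlapped.

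Hist1h4k (H4c12) also had 2 probes, 216 bases apart. The downstream one (chr13:21842063-21842122, minus), listed for 4 genes, had 5.002, 5.345 and 5.039 on the mimic arrays, against 4.864 and 4.759 on the scramble arrays. The upstream one, given above beside Hist1h4c, had 2.10, 1.99 and 2.26 on the mimic arrays, against 1.76 and 2.03 on the scramble arrays. The groups of the first did not overlap and those of the second did, with differences of 0.32 ± 0.20 and 0.22 ± 0.20. Hist1h4c had a difference of 0.22 ± 0.20 as well, although its probe differs from that of Hist1h4k at 8 bases.

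Outside the Hist1 cluster, Hist4h4 (H4f16, chr6:136752681-136752740, minus), the only Hist4 gene among the 45, had 3.49, 3.83 and 3.46 on the mimic arrays, against 3.10 and 2.93 on the scramble arrays. Every mimic array lay above both scramble arrays, with a difference of 0.58 ± 0.21 (adjusted p = 0.133, limma). Hist2h4 (H4c14, chr3:96066951-96067010, minus) had 4.20, 4.39 and 4.60 on the mimic arrays, against 3.94 and 4.21 on the scramble arrays, with overlapping groups and a difference of 0.32 ± 0.21. Its second probe, 227 bases upstream, reached the background mark on 1 of the 6 mimic and 0 of the 4 scramble scans and was not kept.

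A further 2 H4 genes are given because their values stand apart, as was seen afterwards. Hist1h4i (H4c9, minus strand of chromosome 13) had 3 probes, and these disagreed. The upstream one (chr13:22133139-22133198) had −0.54, −0.57 and 0.24 on the mimic arrays, against −0.31 and 0.64 on the scramble arrays, a difference of −0.45 ± 0.35. The probes 460 and 548 bases downstream had differences of 0.06 ± 0.23 and 0.28 ± 0.22, and the nearer of them shares a run of 20 bases with a probe of Galns, a lysosomal sulfatase gene. The upstream probe was the only H4 probe at a negative difference, and it also had a wide spread between arrays of either group.

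Hist1h4m (H4c17, chr13:21903960-21904019, plus), with the stem loop given above, had −1.25, −0.78 and −0.82 on the mimic arrays, against −2.20 and −1.12 on the scramble arrays. The groups overlapped because the scramble arrays lay far apart, and the difference was 0.71 ± 0.33 (adjusted p = 0.226, limma). Without scramble array 2 it was 1.25 with an adjusted p of 0.039 (limma), the only one of 19 alternatives in which it was called, their adjusted p running up to 0.87. Without scramble array 1 it was 0.17 (adjusted p = 0.641, limma).

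By cluster, the 28 kept Hist1 probes had a median difference of 0.31, with 24 positive, and the 7 kept Hist2 probes had 0.36, with 5 positive. Hist3h2a (H2aw, chr11:58768954-58769013, plus), the only kept probe of its cluster, had 2.82, 3.12 and 2.76 on the mimic arrays, against 2.50 and 2.43 on the scramble arrays. Its groups did not overlap, and the difference was 0.44 ± 0.20 (adjusted p = 0.230, limma). In the Hist2 cluster, Hist2h2aa2 had 4.67, 4.80 and 5.56 on the mimic arrays, against 4.66 and 4.32 on the scramble arrays, and Hist2h2ac (H2ac20, chr3:96024378-96024437, minus) had 5.57, 5.84 and 6.12 on the mimic arrays, against 5.70 and 4.91 on the scramble arrays. Their differences, 0.52 ± 0.30 and 0.54 ± 0.29, were alike in size to those of the H2A probes of Hist1, while the H3 probes of Hist2 had the negative differences given above.

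Promoters of these genes share elements that can be read in 300-base windows of RefSeq around the start of each gene (GRCm38.p6, both strands), which held 39 of the 45 genes. The octamer ATTTGCAT, bound by the factor Oct-1 in histone H2B promoters, was in the windows of 5 of 7 H2B genes and 5 of 12 H2A genes and of no H1, H3 or H4 gene, against 1.97% of all windows. In H2B windows it read ATTTGCAT on the gene's strand and in H2A windows ATGCAAAT. CCAAT was in the windows of 6 of 6 H1, 12 of 12 H2A, 7 of 7 H2B and 6 of 6 H3 genes but of 2 of 8 H4 genes, against 41.1% of all windows. The stretches below show the octamer in capitals for Hist1h2ab (chr13:23750949-23750976, plus), Hist1h2bm (chr13:21722009-21722036, plus) and Hist2h2bb (chr3:96269642-96269669, plus). They come from H2A and H2B, the classes whose windows held it.
Hist1h2ab: gcaggcctttATGCAAATgaggagctca
Hist1h2bm: tctcgtctctATTTGCATaacagcgtgt
Hist2h2bb: gtgaaacctcATTTGCATacaagctcta

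These matches describe the windows and say nothing of factor binding in these cells.

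The histone values were set beside genes that act with histones, 1 probe a gene. Of 54 genes of S phase and DNA replication 44 were kept, and 4 rose in mimic samples and 1 fell, where 5.11% of all kept probes were called higher and 4.02% lower. Their median difference was 0.42, with 38 positive, against 0.06 and 55.6% over all kept probes. The scramble arrays disagreed here too. Relative to each gene's scramble mean, the list median was 0.39, 0.54 and 0.51 on the mimic arrays and 0.18 and −0.18 on the scramble arrays. Dut, which removes dUTP, had 3.93, 4.40 and 3.99 on the mimic arrays, against 2.84 and 2.35 on the scramble arrays, a difference of 1.51 ± 0.25 (adjusted p = 0.0085, limma).

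Tk1, the thymidine kinase of S phase, had 3.65, 3.74 and 3.70 on the mimic arrays, against 2.72 and 2.33 on the scramble arrays, a difference of 1.17 ± 0.20 (adjusted p = 0.012, limma). Pola1, the catalytic subunit of the polymerase that starts new strands, differed by 1.23 ± 0.22 (adjusted p = 0.013, limma) and Ccna2, cyclin A2, by 0.81 ± 0.19 (adjusted p = 0.036, limma). E2f2, a transcription factor of the E2F family, fell, with 3.49, 3.65 and 3.49 on the mimic arrays, against 5.15 and 4.24 on the scramble arrays, a difference of −1.15 ± 0.28 (adjusted p = 0.044, limma). Every called gene of the list had groups that did not overlap. These genes were picked by the test on the same arrays, so this adds no support. Pcna, the sliding clamp of the replication fork, differed by 0.76 ± 0.28 and did not pass (adjusted p = 0.143, limma). The count of genes that rose ran from 0 to 21 over the alternative settings, being 18 without scramble array 1 (16.2% of all probes then called higher), 3 without scramble array 2 (3.60%), and 1, 2 and 1 without mimic arrays 1, 2 and 3. Dut was called in each of these 5 fits, Pola1 was not called without mimic array 1 or 3, and Tk1 was not called when any 1 mimic array was left out. Ccna2 and E2f2 also lost the call when any 1 mimic array was left out, and Ccna2 without scramble array 2.

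Of 15 genes listed as replication-independent variants, 13 were kept, with a median difference of 0.36 and 10 positive. None was called (0 of 13, limma), where 9.13% of all kept probes were. At an unadjusted p of 0.05, 3 passed, all with a positive difference (14.4% of all kept probes). Without scramble array 1 the adjusted test called 4 higher and 2 lower, where 16.2% and 9.67% of all probes were. H2afx, the H2A form marked at DNA breaks, had 2.84, 3.16 and 2.81 on the mimic arrays, against 2.27 and 1.99 on the scramble arrays, a difference of 0.81 ± 0.21 that lay just outside the threshold (adjusted p = 0.054, limma). Cenpa, the centromeric H3 form, differed by 0.55 ± 0.20 (adjusted p = 0.128, limma). H3f3b, a gene for H3.3, and H2afz, the main H2A.Z gene, differed by 0.36 ± 0.21 and 0.20 ± 0.20. Of the 3 kept probes of H3f3b, 1 had the opposite sign. H1f0, the linker histone that accumulates in cells that stop dividing, differed by −0.11 ± 0.35, its scramble arrays lying at −0.09 and 1.23 and its mimic arrays between 0.45 and 0.48. The variants thus had a median near that of the replication-dependent set. A probe of H2afj, a gene of the variant list, shares a run of 20 bases with H2A probes of that set, so the sets are not fully separate.

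Of 34 genes for histone chaperones and deposition 32 were kept, with a median difference of 0.07. Of these 1 rose and none fell, where 5.11% of all kept probes were called higher and 4.02% lower. Without scramble array 1 the counts were 4 and 3 (16.2% and 9.67% of all probes), and without scramble array 2 both were 0. The 1 was Oip5, which helps load the centromeric H3 form. It was kept through its mimic scans alone (4 of 6), so its direction adds nothing as support. None of the 4 scramble scans had it well above background, and its signal was at least 1.46-fold higher in mimic samples (means of −0.67 in mimic and −1.65 in scramble samples, adjusted p = 0.019, limma). It was not called when any 1 mimic array or scramble array 2 was left out. Asf1b, a carrier of new H3 and H4, Nasp, a store of H3 and H4, and Chaf1a, a subunit of the assembly factor at the fork, differed by 0.32 ± 0.20, 0.33 ± 0.24 and −0.18 ± 0.25 and did not pass. The 2 kept probes of Nasp had opposite signs.

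Of 33 genes for histone message processing and transcription 27 were kept, with a median difference of −0.08 and 12 positive. None was called (0 of 27, limma), where 9.13% of all kept probes were. At an unadjusted p of 0.05, 4 passed with a positive difference and 6 with a negative one, against 14.4% and 10.9% of all kept probes. Without scramble array 1 the adjusted test called 5 higher and 5 lower, where 16.2% and 9.67% of all probes were. Slbp, whose product binds the stem loop, had −0.33, −0.37 and −0.18 on the mimic arrays, against −0.79 and −0.54 on the scramble arrays, a difference of 0.37 ± 0.20 (adjusted p = 0.288, limma), with the probe well above background on 5 of 6 mimic and 1 of 4 scramble scans. Npat, the coactivator of histone gene transcription, did not reach the background mark on any scan. The Slbp difference was positive like most of the histone ones, but its probe passed the filter through its mimic scans, so this direction adds nothing. The list as a whole did not lie on the side of the histone probes.

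**Figure D4:**
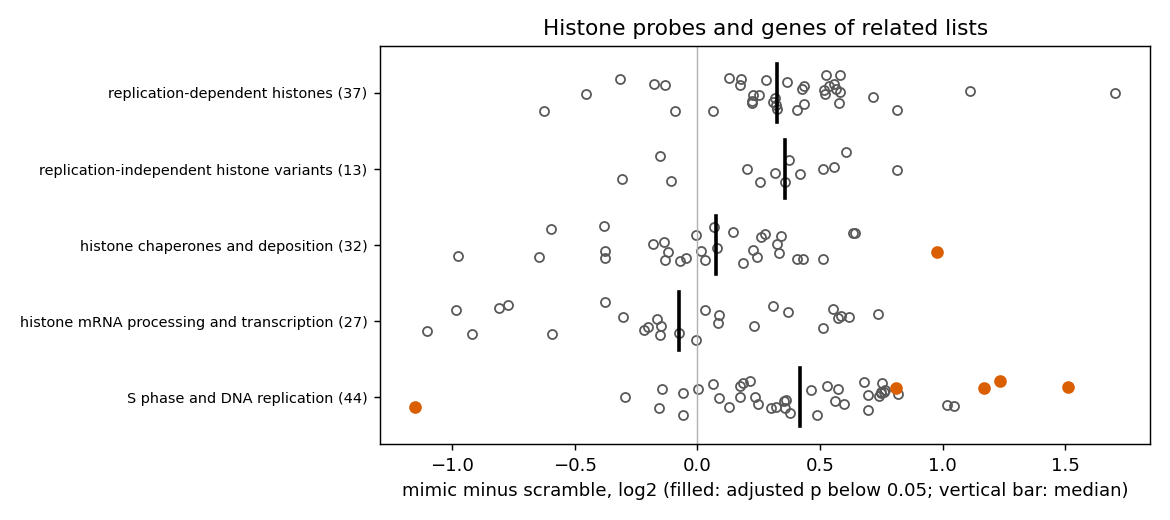
Fitted mimic minus scramble difference (x axis, log2) of the 37 kept histone probes and of the kept genes of 4 related lists. Filled points have an adjusted p below 0.05 and vertical bars are medians. The medians are 0.32 for replication-dependent histones, 0.36 for variants, 0.07 for chaperones, −0.08 for message processing and 0.42 for S phase, and filled points occur only among chaperones (1) and S phase genes (5). The filled chaperone point, Oip5, was kept through its mimic scans alone.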

How the data were processed

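RNA of C2C12 cells was hybridised to 1-colour Agilent arrays, 150 ng labelled with Cy3 per the labels' protocols. The deposited scanner files hold spot intensities on a linear scale, already background-corrected; per the file headers the software was Feature Extraction 12.0.0.7, while the submitters' processing notes name Agilent Feature Extraction 10.7.3.1. The authors' deposited series matrix, also linear intensity, tracked the scans at r of 0.998 or more and served as an alternative over 16199 probes.

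The main value was log2 of the processed signal minus the 75th percentile of non-control spots. Flagged outlier spots were left out and spots of a probe averaged. Scans of 1 array position were averaged because same-position pairs shared 21 to 77 non-uniform spots and other pairs at most 2. Probes well above background on at least 4 of 10 scans were kept (17455) and tested with limma 3.58.1 (lmFit, eBayes; R 4.3.3), where 3 residual degrees of freedom were joined by 4.85 from the prior, at an adjusted p (Benjamini-Hochberg) of 0.05. The fit was tested on simulated data. The number of arrays limits the precision. Errors are standard errors of the fit unless said otherwise.

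Current symbols came from RefSeq tables of GRCm38.p6, 44 member probes matching by accession and 8 by synonym. A bound replaces the fold where no scan of a group had the probe well above background. Such a bound leaves out the error of the arrays. The members and lists were chosen with earlier results of these data known. Named genes are, per class, the 4 kept probes with the highest mean and other probes of their genes, kept members of Hist2, Hist3 and Hist4, 12 fixed genes (Slbp, Npat, Asf1b, Chaf1a, Nasp, H1f0, H2afz, H2afx, H3f3b, Cenpa, Pcna and Tk1) and up to 5 called genes a list. Dnajc24, entered by mistake in the message processing list, was removed. Replicate numbers were not taken as pairs.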

Additional observations from a re-analysis of the deposited data

How the results depend on the processing

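The 21 alternatives, 5 of them leaving out an array, changed scaling, normalization, background, filter, probe choice, scan use and blocks. No result changed from called in one direction to called in the other. The median histone difference stayed positive throughout, between 0.19 and 0.43, the lowest with the 75th percentile of probes that every scan had well above background, which also moved the median of all kept probes to −0.07 from 0.06. Under that scaling 1 histone probe was called lower, and the medians of H3 and H4 were −0.24 and 0.13. Scaling to the median called 1 histone probe higher and 399 probes of all lower. Without a filter the medians of H2B and H3 were 0.18 and 0.0089, and 273 probes of all were called higher and 306 lower. A filter requiring all scans called 1 histone probe higher. The scans of the first day put the H3 median at 0.068, and those of the second called 559 probes of all higher. The day block called 2 histone probes higher, and the slide row block 1, with 563 probes of all higher. The 10 labelled samples taken as separate called 12 histone probes higher and 1 lower, and 2963 and 2303 of all probes. That fit counts both scans of an array as samples, so its calls overstate the replication. Leaving out 1 array in turn called 0 to 9 histone probes higher and 0 to 1 lower, 343 to 2831 of all probes higher and 326 to 1687 lower, with H3 medians of −0.16 to 0.050 and histone medians of 0.29 to 0.43. The 9 came without scramble array 1, where 2831 of all probes were called higher, and 1 higher and 1 lower without scramble array 2; the lone scramble array is then assumed to vary like the mimic arrays.

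With the replicate number as a block over the 10 labelled samples, 2 histone probes were called higher (Hist1h1b and Hist1h2bc) and 1 lower (Hist2h3c2), and 1625 of all probes higher and 1251 lower. Deviations of same-numbered samples from their group means correlated at r of 0.04, −0.13, −0.40 and 0.19 over 12637 probes. Of the 4 scramble samples only replicate 4 correlated best with its own number. Replicates 1 of both groups shared a slide row and scan day, as did replicates 2. The correlations gave no ground to treat same-numbered samples as pairs.

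Of the 52 probes, 10 did not reach the background mark on a single scan, so a difference in those messages was not detectable at this signal.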
